A study of Mus musculus with 8 samples.

Results

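The genes Il17a and Il17f lie next to each other on mouse chromosome 1, and peaks of Smad4 chromatin immunoprecipitation and sequencing (ChIP-seq) around them are described here. The window ran from 100 kb below the start of Il17a to 100 kb above the end of Il17f (chromosome 1, 20630905 to 20885274 on mm10, 254 kb), and every called peak that met it by at least 1 bp was taken. This gave 7 of the 47900 peaks of the series. Merging the wild-type (WT) peaks that met each other left 4 regions, of 29750 in the whole genome.

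The cells were CD4+ T cells of C57BL/6 mice, from spleen and lymph nodes, activated and sampled 12 h after interleukin 6 and a TGF-β receptor inhibitor were given. All libraries share this treatment, so none shows the locus without the inhibitor or without interleukin 6. The 2 WT libraries, both labelled female, were compared with 2 knockout (KO) libraries of genotype CD4cre;Smad4fl/fl, KO replicate 1 labelled as pooled from males and females and KO replicate 2 as male. In such mice the Cd4 promoter drives Cre in the T cell lineage, and Cre removes the floxed part of Smad4. The labels do not say whether the WT mice carried Cre, nor whether replicates were separate animals, so sex and genotype cannot be told apart and p-values measure only the spread between these libraries. The lists give peak positions without height, score or p-value, and read depth is not given in the sources used here. At Smad4 itself, with 10 kb on both sides, WT replicates 1 and 2 had 5 and 3 peaks and KO replicates 1 and 2 had 1 and 0, which does not show whether the allele was deleted. The label was checked against marker genes. All 8 T cell markers (Cd4, 3 CD3 chain genes, Lck and others) had a region within 10 kb that was called in both WT lists and met no KO peak, as did 44.3% of all protein-coding genes. The count was 2 of 5 for B cell markers, close to that share, and 0 of 5 for myeloid markers.

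Il17a and Il17f encode the cytokines by which Th17 cells are recognised. IL-17A and IL-17F act as homodimers or as a heterodimer, and they signal through the receptor chains IL-17RA and IL-17RC to recruit neutrophils and induce antimicrobial peptides. In naive T cells the genes are silent, and interleukin 6, through STAT3, together with TGF-β induces them. Smad4 is the partner shared by the SMAD proteins of the TGF-β and BMP pathways, and the study's title concerns suppression of Th17 differentiation by SKI and SMAD4. The gene pair carries conserved non-coding elements between and around the genes, and regulatory elements of the locus can act over long distances.

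No peak of any library lay over either gene or its start. The promoters of Il17a and Il17f are shown because the peaks of the locus lay away from them, and the promoter of Mcm3, the next coding gene above Il17f, because it was the one gene start in the window under a peak. All 3 are RefSeq sequences on GRCm38.p6, the assembly that mm10 names, and run from 250 bases before to 50 bases after the gene's start in the direction of transcription. They lie at chr1:20730655-20730954 (plus strand), chr1:20784221-20784520 (minus strand) and chr1:20820263-20820562 (minus strand). In the Il17a and Il17f promoters capitals mark GTCT or its reverse complement AGAC, the core of the sequence that SMAD proteins bind. In the Mcm3 promoter capitals mark the 178 bases under the peak of WT replicate 2.
Il17a promoter: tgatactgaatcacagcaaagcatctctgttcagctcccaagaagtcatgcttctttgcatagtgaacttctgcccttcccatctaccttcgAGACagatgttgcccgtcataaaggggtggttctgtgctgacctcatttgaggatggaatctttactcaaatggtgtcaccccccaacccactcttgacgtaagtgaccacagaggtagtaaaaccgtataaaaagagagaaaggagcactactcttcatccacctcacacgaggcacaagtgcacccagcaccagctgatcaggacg
Il17f promoter: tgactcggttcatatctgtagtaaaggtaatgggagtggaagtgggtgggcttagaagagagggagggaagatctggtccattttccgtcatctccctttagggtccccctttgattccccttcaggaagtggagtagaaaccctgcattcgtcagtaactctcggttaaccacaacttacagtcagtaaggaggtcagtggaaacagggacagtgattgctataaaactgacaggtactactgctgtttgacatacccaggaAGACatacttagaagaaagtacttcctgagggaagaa
Mcm3 promoter: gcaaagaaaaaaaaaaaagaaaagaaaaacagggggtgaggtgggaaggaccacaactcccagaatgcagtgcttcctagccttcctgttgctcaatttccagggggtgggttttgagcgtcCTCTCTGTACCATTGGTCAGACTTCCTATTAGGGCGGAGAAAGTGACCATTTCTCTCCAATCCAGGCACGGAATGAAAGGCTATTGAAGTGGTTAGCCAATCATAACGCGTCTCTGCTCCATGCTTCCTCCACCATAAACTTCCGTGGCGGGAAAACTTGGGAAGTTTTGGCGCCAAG

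The Il17a promoter held 1 match to GTCT on either strand, with its first base at -158, and the Il17f promoter 1 match, with its first base at 13. Positions are counted in the direction of transcription, with the start that the promoter table gives as 0. For Il17f this start lies inside the annotated gene body. The Mcm3 promoter held 2 matches. A promoter in the RefSeq table held a median of 2, and 88.0% of the 32851 promoters held at least 1, so these counts do not set the genes apart. The GC-rich SMAD motif GGCGC was found in neither interleukin promoter, 2 overlapping matches lay in the Mcm3 promoter, and 36.9% of all promoters held it. The joined motif GTCTAGAC was in none of the 3 and in 0.213% of all. The AP-1 motif TGANTCA had 1 match in Il17a, at -244, none in the other promoters, and was in 7.81% of all. The nuclear receptor half-site AGGTCA had 1 match in Il17a, at -120, and 1 in Il17f, at -58. It was absent from the Mcm3 promoter and present in 16.3% of all. The STAT motif TTCNNNGAA had no match in the 3 promoters and was in 8.30% of all. GGAAA, the core bound by NFAT, had 0, 2 and 2 matches in Il17a, Il17f and Mcm3, and was in 61.3% of all. Motifs were searched on both strands, and a match is a description of these letters only.

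WT replicate 1 had 3 peaks in the window, WT replicate 2 had 4, and KO replicates 1 and 2 had none. The mean was 3.5 ± 0.71 peaks in WT and 0 ± 0 in KO (SD, n = 2 each), and the groups did not overlap (2-sided exact permutation test, p = 0.33, the smallest that 2 against 2 allows). The KO lists were short, with 564 and 424 peaks in all against 27120 and 19792 in WT. At the mean WT share of peaks in this window, they would hold 0.0882 and 0.0663 peaks here. A count of 0 allows shares of up to 0.532% and 0.708% of the KO lists, far above the WT shares of 0.0111% and 0.0202%. Absence of KO peaks was therefore not resolvable at this locus taken alone. The WT lists cut to 564 peaks, by width or by line order, also had 0 peaks here, an alternative chosen after the data were seen. Neither cut could give another result, so they add nothing to this. The widest locus peaks, 694 and 706 bp, lay below the 95th percentiles of their lists, 1406 and 1326 bp, and the first stood at lines 4913 and 4000. Among 10450 genome tiles as long as the window, 94.4% had no KO peak, and among the 2222 tiles with at least 3 reproducible WT regions free of KO peaks, 83.3% had none.

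**Figure D1:**
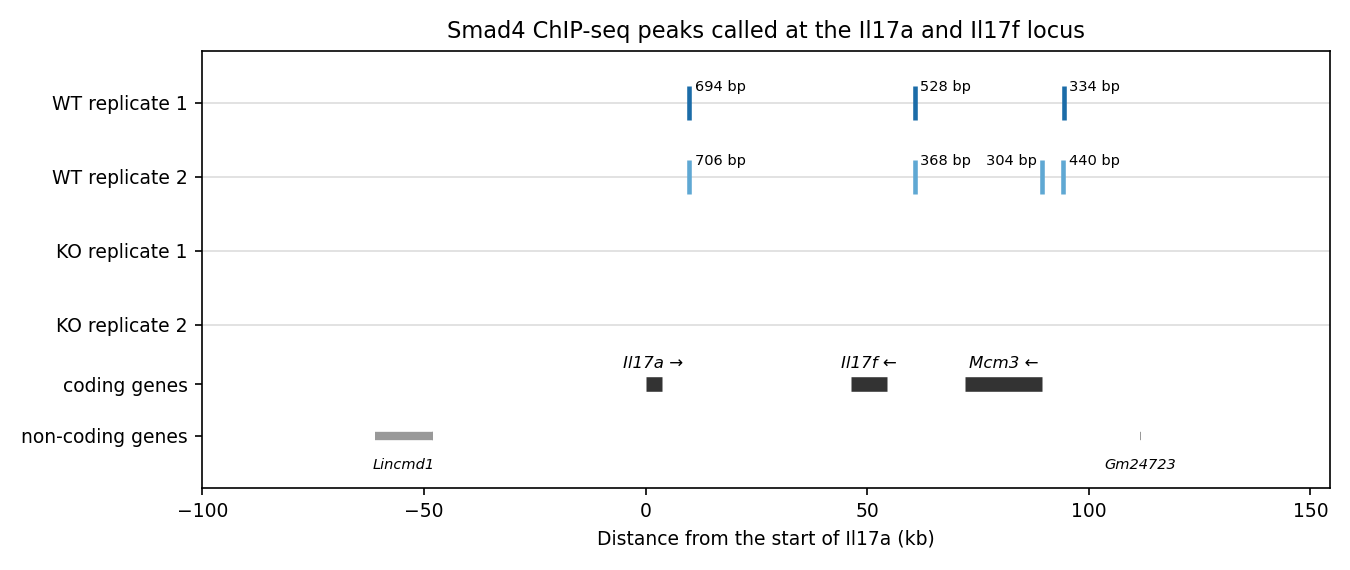
Peaks of the 4 libraries along the window, as distance in kb from the start of Il17a; each tick is the centre of 1 peak with its width in bp, arrows give the direction of transcription, and the pseudogene is not drawn. The WT libraries share 3 positions, WT replicate 2 has 1 more at the start of Mcm3, and both KO rows are empty.

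Of the 4 regions, 3 held a peak of both WT lists, and none of these met a KO peak. They are called WT-only regions. Genome-wide, 96.2% of the 16501 reproducible WT regions met no KO peak, so this count is what most regions show. All 3 peaks of WT replicate 1 met a peak of WT replicate 2 (100%; exact Clopper-Pearson 95% interval 29.2% to 100%), against 61.5% over its whole list. In the other direction it was 3 of 4 (75%; interval 19.4% to 99.4%), against 85.8%. The intervals cover counting error only.

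The region downstream of Il17a (chromosome 1, 20740385 to 20741111) lay between the genes, 5.89 kb past the end of Il17a and 36.0 kb from the body of Il17f. Its peak was 694 bp wide in WT replicate 1 and 706 bp in WT replicate 2. It was the most alike of the locus between the lists, since the shared 673 bp made up 97.0% and 95.3% of the peaks and their centres lay 27 bp apart. It was also the widest of the locus in each WT list. Il17a is transcribed away from Lincmd1 and towards Il17f, so this region follows its last exon, and its centre lay 9.84 kb from the start of Il17a.

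The region upstream of Il17f (chromosome 1, 20791380 to 20791907) lay between Il17f and Mcm3. It was 6.11 kb from the body of Il17f and 11.1 kb from that of Mcm3. Its centre lay 7.37 kb upstream of the Il17f start that the promoter table gives, which is inside the annotated body because the gene bounds reach past it. The peak was 528 bp wide in WT replicate 1 and 368 bp in WT replicate 2. The narrower peak lay wholly inside the wider one, 69.7% of which it covered, and the centres were 34 bp apart.

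The third WT-only region (chromosome 1, 20824962 to 20825401) was nearer to Mcm3, which encodes a subunit of the replicative DNA helicase, than to either interleukin gene. It lay 4.65 kb upstream of Mcm3, 39.7 kb from Il17f and 90.5 kb from Il17a. The nearest annotated gene of any kind was the pseudogene Gm20587, at 2.45 kb. Its peak was 334 bp wide in WT replicate 1 and 440 bp in WT replicate 2, the reverse order of widths to the region upstream of Il17f. The remaining region was a single peak of 304 bp in WT replicate 2 (chromosome 1, 20820137 to 20820440), over the start of Mcm3, with its centre 24 bp from that start. WT replicate 1 had no peak there. Among all gene starts in the promoter table, 23.6% met a peak of WT replicate 1 and 21.1% a peak of WT replicate 2, and 19.9% met a WT-only region. Neither interleukin start was among them.

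Peak widths in the locus were ordinary for their lists. The median peak was 440 bp in WT replicate 1 and 438 bp in WT replicate 2. In WT replicate 1 the peak downstream of Il17a was wider than 74.7% of the list, that upstream of Il17f wider than 61.0% and that upstream of Mcm3 wider than 30.9%. In WT replicate 2 these shares were 76.8%, 34.9% and 50.3%, and the peak over the start of Mcm3 was wider than 21.6%. Of the 3 WT-only regions, only that downstream of Il17a was above the median width in both lists. Among the 15882 WT-only regions, 68.3% had a smaller summed peak width than the region downstream of Il17a, 35.1% than that upstream of Il17f and 23.4% than that upstream of Mcm3.

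**Figure D2:**
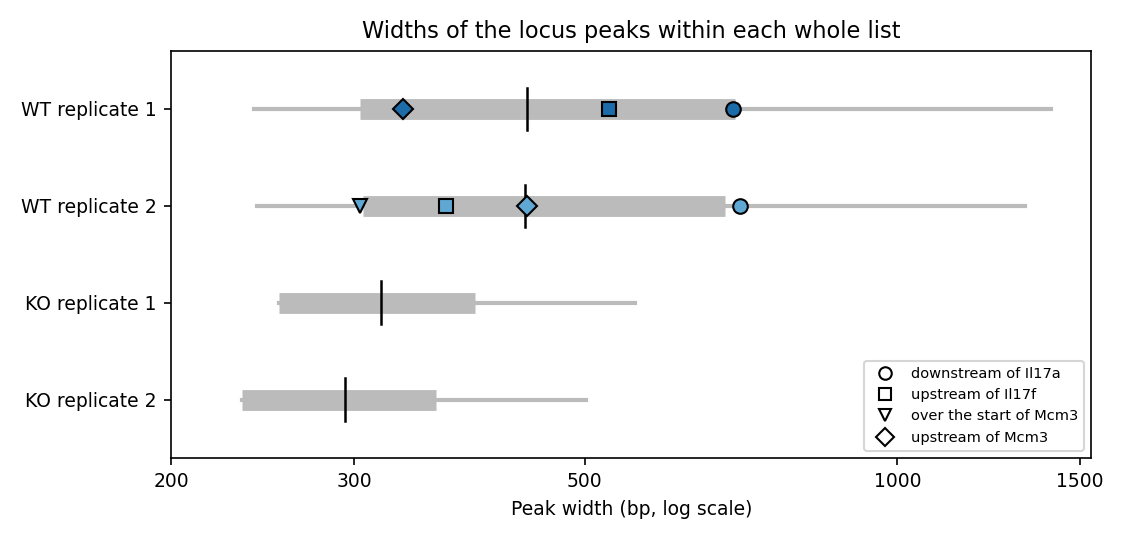
Widths of the 7 peaks (symbols; log axis in bp) on the spread of each whole list, drawn as the 5th to 95th percentile (thin line), the quartiles (thick bar) and the median (tick). The peak downstream of Il17a lies near the upper quartile in both WT lists, at 694 and 706 bp; the KO lists have no peak to mark.

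The deposited lists are not sorted by position, and what sets their order is not given in the sources used here. Wider peaks stood at lower line numbers (Spearman correlation -0.953 over the peaks of WT replicate 1 and -0.950 over those of WT replicate 2). Over the 15890 regions with 1 peak from each WT list, the line numbers of the lists had a Spearman correlation of 0.828. Peaks of 1 region share their sequence and mappability, and no p is given. The peak downstream of Il17a stood at line 4913 of 27120 in WT replicate 1 and at line 4000 of 19792 in WT replicate 2. The peak upstream of Il17f stood at lines 11331 and 11938, and that upstream of Mcm3 at lines 17204 and 10471. The order of the latter pair thus differed between the lists, while the region downstream of Il17a came first in each. The peak over the start of Mcm3 stood at line 14245 of WT replicate 2.

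All regions of the locus lay above the end of Il17a. The 109 kb of the window below the first region held no peak, although it contains Il17a itself, the non-coding gene Lincmd1 and the microRNA genes Mir206 and Mir133b, which are known from skeletal muscle. The stretch without peaks went far beyond the window. In WT replicate 1 the next peak below lay at 16747308 to 16747547, so that 3.99 Mb without a peak ended at the region downstream of Il17a. In WT replicate 2 the next peak below ended at 16689041 and the stretch was 4.05 Mb. Only 66 of the 27093 gaps between neighbouring peaks were longer in WT replicate 1, and 63 of 19766 in WT replicate 2, where median gaps were 13.7 and 20.8 kb. The 11 coding genes that met the gap in WT replicate 1 included Il17a, Pkhd1, mutated in a polycystic kidney disease, the defensin genes Defb18 and Defb41, and the transcription factor genes Tfap2b and Tfap2d.

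Above the last region, 59.9 kb of the window held no peak. The first peak beyond the window was 5.67 kb outside it in WT replicate 1 (20890944 to 20891311, 368 bp), at Paqr8, and WT replicate 2 had none for 448 kb. The upper end of the window thus fell just short of a peak called in 1 WT list only. The nearest KO peaks on the chromosome lay 10720 kb from Il17a in KO replicate 1 and 19451 kb from Il17f in KO replicate 2.

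Il17a and Il17f each had 1 WT-only region within 10 kb, as did 44.3% of the 21775 protein-coding genes with at least 1. Their distances to the nearest WT-only region, 5.89 and 6.11 kb, compare with a median of 18.8 kb over all coding genes. A WT-only region met the body of 34.8% of coding genes, and 41.0% and 41.1% had one as near as Il17a and Il17f had. A WT-only region was therefore near these genes, but nearer to many others. The 3 WT-only regions of the window exceeded the count in 78.7% of the 10450 tiles of the same length, while 21.3% of tiles held 3 or more and the highest held 29. Most tiles had none (59.8%). Set against spans of coding genes with the same margins, the density of 1.18 WT-only regions per 100 kb was above that of 57.9% of them, the median being 0.911. The units differ, since each such span was built on 1 gene and the window on 2 genes and the space between them. With the same margins, Il17a and Il17f taken singly had 1.47 and 1.44 per 100 kb.

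**Figure D3:**
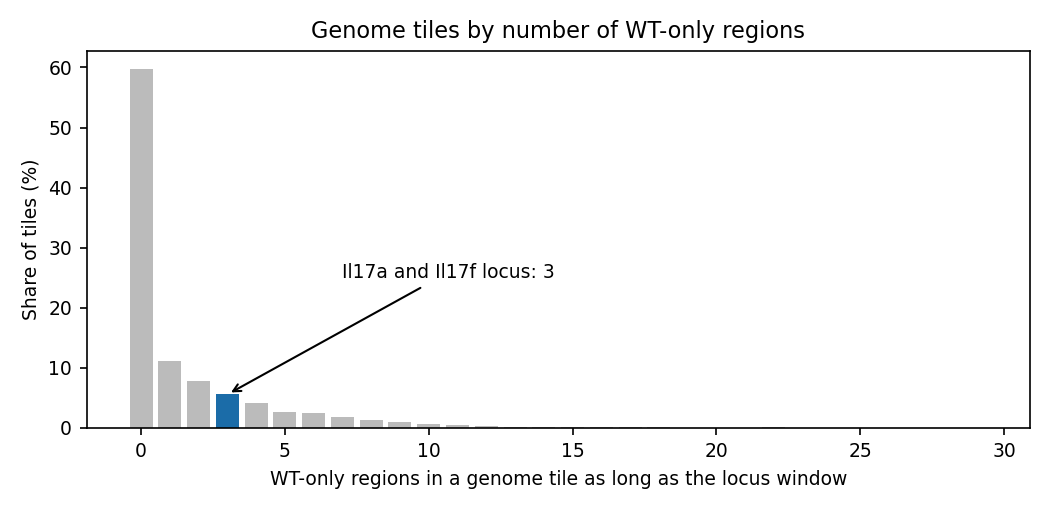
Share of 10450 genome tiles of 254 kb (vertical axis, %) by the number of WT-only regions they hold; the coloured bar is the class of the Il17a and Il17f window. With 3 regions, the window stands above the 59.8% of tiles with none and well below the highest tile, with 29.

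Of 12 genes of the IL-17 family, for the ligands, receptor chains and the adaptor Act1 (Traf3ip2), 4 had a WT-only region within 10 kb. That is 33.3% against 44.3% of all coding genes, so the count does not set the family apart. None of the 12 had a KO peak there, like most coding genes, of which 2.42% had one. The 4 genes were Il17a, Il17f, the ligand gene Il17c, whose nearest WT-only region lay 8.33 kb away, and Il17ra, the gene of the shared receptor chain. Il17ra had 4 WT-only regions, from 7 and 4 peaks in WT replicates 1 and 2, and was the one gene of the family with a WT-only region in its body. The ligand genes Il17b, Il17d and Il25 had no peak within 10 kb in any library. The receptor chain gene Il17rc had 1 peak in each WT list but no WT-only region within 10 kb, the nearest lying at 11.2 kb. Without WT replicate 2 the count was 7 of 12, against 53.2% of all coding genes, and Il17rb and Il17rd, with 1 and 2 peaks in WT replicate 1, had none in WT replicate 2.

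Most genes of Th17 and SMAD regulators had more WT-only regions within 10 kb than Il17a or Il17f, 17 of 20, where 19.1% of all coding genes had more than 1. Of these 20 genes, 19 had a WT-only region in the gene body, against 34.8% of all coding genes. A KO peak lay within 10 kb of 7 of them, against 2.42% of all coding genes. None of these counts was matched on gene length. The list was also chosen with earlier results of these data known, so the counts are a description and not independent support. The median of 3.5 WT-only regions within 10 kb was the same in the 8 T cell markers. Stat3 and the AP-1 family gene Batf had 4 WT-only regions each within 10 kb. Irf4 had 5 and Ski, the gene of the SMAD co-repressor, had 10. Rora, a nuclear receptor gene, had 17 in a much longer body, and longer genes have more room for regions. Maf and Ahr had 1 each, as many as Il17a or Il17f. Il23r, the receptor gene of interleukin 23, was the only gene of the 20 with no WT-only region within 10 kb. It had 3 and 2 peaks in WT and 1 peak in KO replicate 2.

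Among 13 other T cell cytokine genes, 7 had a WT-only region within 10 kb (53.8% against 44.3% of all coding genes). With 100 kb on both sides, Il17a and Il17f each had 3 WT-only regions, the same 3. Of the other cytokine genes 5 had fewer, 1 had as many and 7 had more, with a range of 2 to 21. The highest was Il21, another Th17 and follicular helper cytokine gene, with 21, and its neighbour Il2 had 11. The adjacent genes Tnf and Lta had 18 each. The low end held Il22, a Th17 cytokine gene, Il3, Csf2, and Il4 and Il13 of the Th2 locus, with 2 each. Il5, also of the Th2 locus, had 4. Neighbouring cytokine genes share regions, so these counts are not independent. Within 100 kb, 6 of the 13 genes had a KO peak, up to 3, and 8.56% of all coding genes had one. Il17a and Il17f had none, like most coding genes.

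**Figure D4:**
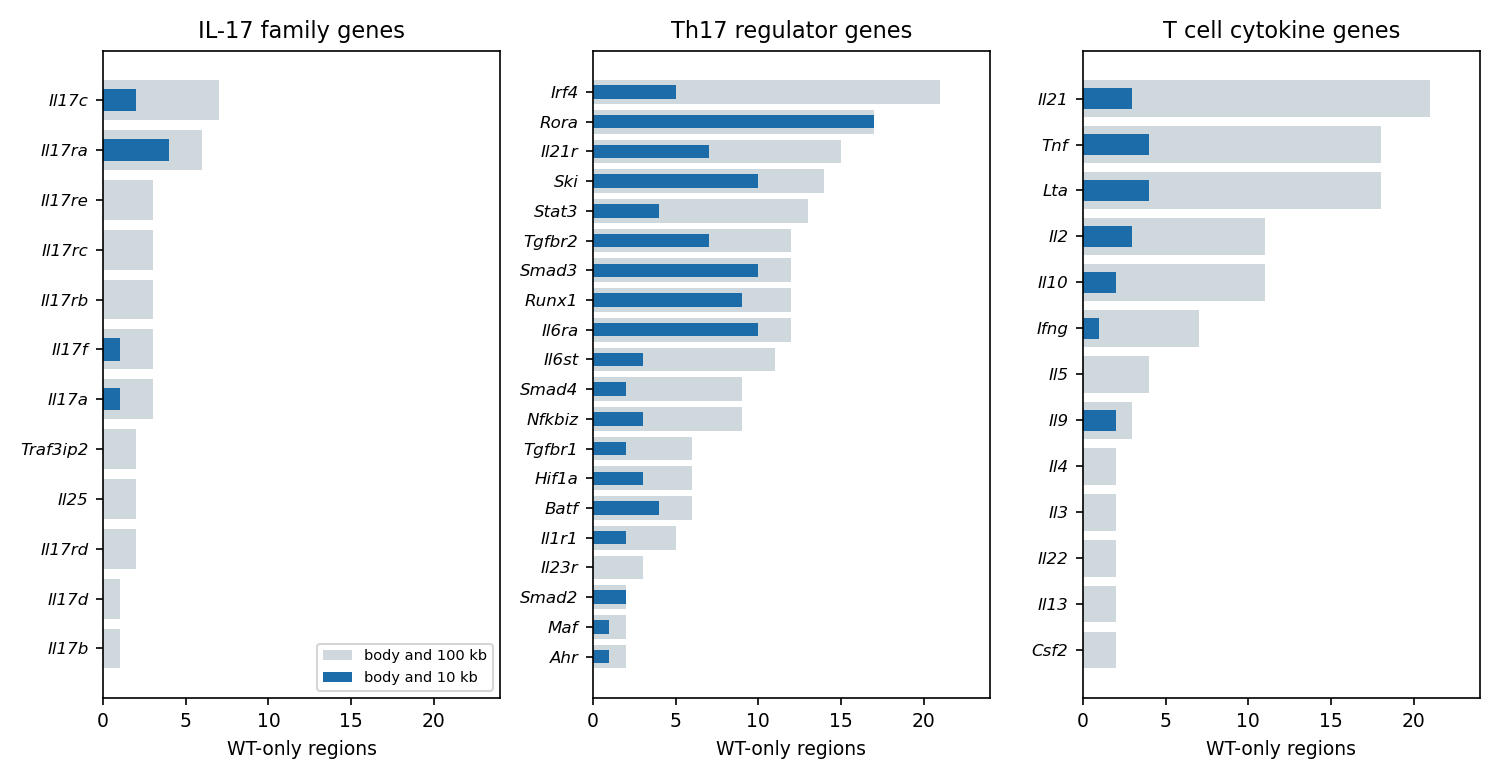
WT-only regions (horizontal axis, count) within 10 kb of the gene body (narrow bars) and within 100 kb (wide bars) for 3 gene lists; Il17a and Il17f stand in the left panel with 1 and 3. Il17ra, with 4 within 10 kb, has the most of the family at that distance, Rora with 17 has the most of the regulators within 10 kb, and Il21 with 21 has the most of the cytokines within 100 kb.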

How the data were processed

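Called peaks of 4 Smad4 ChIP libraries (2 WT, 2 KO) were used; the 4 input samples were not analysed here. The authors deposited 1 list of chromosome, start and end per library, not pooled. Per the submitters' processing notes, the tools were Trim Galore, HOMER 4.8.3 and Bowtie on mm10; which did what, the calling thresholds and the use of inputs are not stated there. Threshold and depth set the number of peaks, so list lengths cannot be read as binding alone.

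Positions are 1-based. Gene bounds, names and promoters came from RefSeq on GRCm38.p6. Of its coding genes, 21775 were used; entries that begin under 3 Mb, except on Y, were dropped, since that stretch of the chromosomes is unsequenced in this assembly. WT peaks that shared at least 1 bp were joined into regions. Regions with a peak from each WT list are called reproducible, and those of them free of KO peaks are called WT-only. A gene's territory was its body with 10 kb on both sides. Tiles of the window's length were laid over the annotated span of each chromosome, and a region was counted by its centre. Peak numbers were compared by a 2-sided exact permutation test over libraries. The named genes are Il17a, Il17f, the genes and peaks of the window, the nearest peak outside it on each side, and members of 3 lists, of which 1 gene is not reported here. Marker genes of T, B and myeloid cells are given as counts, with a few named; the genes of the stretch without peaks were chosen after the data were seen. The members and lists were chosen with earlier results of these data known. Region counting was tested on simulated data. Alternatives were other margins, other overlap rules, width filters, other territories, pairing by replicate number and leaving out each library. Python 3.11.15, numpy 2.4.6, pandas 2.3.3, SciPy 1.17.1 and matplotlib 3.10.9 were used.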

Additional observations from a re-analysis of the deposited data

How the results depend on the processing

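Of 67 alternatives to 10 results, 53 were classed as the same as the main result and 14 as weaker or moved. A moved value need not reverse a result, as a distance of 5.92 kb in place of 5.89 kb for Il17a was classed so. The difference of 3.5 peaks between WT and KO was 2, 3.5 and 4.5 with margins of 20, 50 and 200 kb. Each margin had an exact permutation p of 0.33, the smallest that 2 against 2 allows. When each library was left out, the difference ranged from 3 to 4. None of these settings could reverse its direction, as the nearest KO peaks lay 10720 kb from Il17a and 19451 kb from Il17f. The difference fell to 0 (exact permutation p = 1) with WT lists cut to 564 peaks, by width or by line. The number of WT-only regions then fell to 0 as well. Neither cut could give another result. The first locus peaks stood at lines 4913 and 4000 of WT replicates 1 and 2. The widest, 694 and 706 bp, lay below the 95th percentiles of 1406 and 1326 bp. With peaks at or above the median width of their list, 1 WT-only region was left, downstream of Il17a; leaving out a library gave 3 to 4. Pairing by replicate number as a block left the difference at 3.5 peaks, with an exact sign-flip p of 0.5, the smallest for 2 pairs. Deviations of peak shares between same-numbered libraries had a Pearson correlation of -0.0095 over 10450 tiles, as a description. Since 94.4% of tiles held no KO peak, this value cannot show whether such libraries deviate together. Distances to the nearest WT-only region ran from 5.89 to 5.92 kb for Il17a and from 6.11 to 6.15 kb for Il17f when a library was left out. From the gene start to the region's centre they were 9.84 and 7.37 kb. The window, built on 2 genes, exceeded 57.9% of spans built on 1 gene, against 78.7% of tiles. The IL-17 family count was 1 within 1 kb and 8 within 50 kb, where shares of all coding genes were 36.4% and 61.9%, and ran from 4 to 7 when a library was left out. The cytokine count was 5 of 13 within 1 kb and 13 of 13 within 50 kb, against the same 36.4% and 61.9% of all coding genes.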
